A study of Mus musculus with 629 samples.

Results

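The Rab family, the small GTPases that mark the membranes of the endosomal and secretory pathways, was followed here in single macrophages and microglia of the mouse brain. Its members were taken by symbol, as every gene named Rab with a number, with or without a letter after it, which gave 59 of the 53546 gene rows in the deposited table. The symbol alone decided membership, although earlier results of these data were known when the rule was chosen. The study sorted single brain cells of adult C57BL/6 mice into the wells of multiwell plates and sequenced full-length cDNA with SMART-seq2. All mice came from the SM22-Cre;Rosa26-stop-tdTomato reporter line, in which the SM22 promoter, active mainly in smooth muscle, drives Cre and so switches on a red fluorescent protein. The labels do not say whether the sorted macrophages and microglia carried that protein, and they name no animal. Mice were Notch3 WT, Het or KO, and Notch3 encodes a receptor best known in the mural cells of vessels.

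There were 400 macrophages, of which 211 were WT, 70 Het and 119 KO, and 215 microglia, of which 79 were WT, 58 Het and 78 KO. A further 14 cells had a type labelled only 7. Plates 056s, 059s, 060s and 530s each held 1 genotype in these cells, so there plate and genotype cannot be told apart, while 524s held Het and KO and 529s held WT and Het. The cells of 1 cell type, genotype and plate are called a pool here, and each cell type had 8 pools. The gene counts of a cell, without ERCC spike-ins and without the 18S ribosomal RNA gene Rn18s, had a median of 197196.5 in macrophages and 246554 in microglia. Levels below are CPM, the usual scaling of the summed counts of a gene to that total. Each deposited sample was 1 cell and no label named an animal, so a genotype within a cell type counted as 1 sample and no test was run. In place of a test, a gene was called when it passed a rule of size and of agreement between pools, and the share of all genes that passed is given beside the first count. Intervals are exact Poisson 95% intervals that cover counting error only, and reads without molecular identifiers can be PCR copies.

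A Rab protein cycles between a GTP-bound form on a membrane and a GDP-bound form in the cytosol. Exchange factors load it with GTP, effectors such as tethers and motors read that form, and GTPase activating proteins switch it off. In macrophages and microglia, which take up debris and pathogens, Rab proteins carry a phagosome from its early, Rab5-bearing form to fusion with lysosomes under Rab7, and they route cytokines and receptors to the cell surface.

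The cell type labels were set against markers. All 13 macrophage markers, with Mrc1, Cd163 and Pf4 among them, were higher in macrophages, and their summed level was 29869.2 CPM there against 13093.6 in microglia. All 13 microglia markers, with Tmem119, P2ry12 and Sall1 among them, were higher in microglia, at 52422.5 CPM against 8829.2. The pools did not overlap in either list: the macrophage list spanned 25760.7 to 38481.7 CPM in macrophage pools and 8451.6 to 17888.4 in microglia pools, and the microglia list 4111.8 to 11705.2 and 34668.0 to 65742.9. Each list was therefore also present in the other type, and 69 of 215 microglia had a macrophage marker sum above 15687.2 CPM, the 5th percentile of macrophages. Of 9 mural markers the sum was 2.30 CPM in macrophages and 17.6 in microglia, with Abcc9 at 0 in macrophages. The sums in macrophages and microglia were 4.76 and 53.7 CPM for 8 endothelial markers (Slco1a4 at 0 in macrophages), 18.7 and 14.4 for 6 fibroblast markers, and 129 and 198 for 6 astrocyte markers. They were 692 and 474 CPM for 6 oligodendrocyte markers, 28.7 and 12.1 for 6 neuron markers, 16.4 and 41.0 for 6 monocyte and neutrophil markers, 4.43 and 0.124 for 6 lymphocyte markers (Ms4a1 at 0 in microglia), and 68.1 and 36.7 for 5 dendritic cell markers. Notch3 itself was too low to check the genotype labels: it had a count in at most 1 cell of any genotype and cell type, and its summed level was highest in WT macrophages, at 1.30 CPM. The cell type labels were probably made from these same counts, so differences between macrophages and microglia are a description of the labelled groups.

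The promoters of the 4 Rab genes that passed a rule below are shown, because they are the members on which the comparisons turn. Rab20 and Rab6b were higher in microglia, Rab39 was higher in Het than in WT microglia, and Rab3d was lower in Het than in WT macrophages. Each runs from 250 bases before to 50 after the RefSeq start site, on the gene's own strand, in GRCm38.p6: Rab20 at chr8:11478591-11478890 (minus), Rab6b at chr9:103111824-103112123 (plus), Rab39 at chr9:53706183-53706482 (minus) and Rab3d at chr9:21918134-21918433 (minus). Capitals mark the core of the site bound by PU.1, the myeloid transcription factor, searched as GAGGAAG on both strands, and the E-box CACGTG, which reads the same on both strands and does not overlap it.
Rab20: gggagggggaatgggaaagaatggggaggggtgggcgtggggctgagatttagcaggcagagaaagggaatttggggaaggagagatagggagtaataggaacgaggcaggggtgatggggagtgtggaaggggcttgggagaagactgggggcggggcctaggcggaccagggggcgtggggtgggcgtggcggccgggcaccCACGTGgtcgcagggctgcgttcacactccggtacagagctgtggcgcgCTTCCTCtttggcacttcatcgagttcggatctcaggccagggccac
Rab6b: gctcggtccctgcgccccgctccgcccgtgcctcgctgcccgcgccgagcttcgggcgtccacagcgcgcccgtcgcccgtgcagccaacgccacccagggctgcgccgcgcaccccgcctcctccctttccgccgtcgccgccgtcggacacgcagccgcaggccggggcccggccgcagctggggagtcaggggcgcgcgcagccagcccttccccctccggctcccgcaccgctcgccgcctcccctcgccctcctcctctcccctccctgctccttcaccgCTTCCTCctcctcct
Rab39: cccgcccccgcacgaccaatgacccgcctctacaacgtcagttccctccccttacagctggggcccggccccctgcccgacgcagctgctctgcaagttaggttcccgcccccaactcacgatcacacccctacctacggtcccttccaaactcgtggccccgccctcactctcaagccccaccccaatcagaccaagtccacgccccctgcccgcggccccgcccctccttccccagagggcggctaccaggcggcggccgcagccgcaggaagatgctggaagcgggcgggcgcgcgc
Rab3d: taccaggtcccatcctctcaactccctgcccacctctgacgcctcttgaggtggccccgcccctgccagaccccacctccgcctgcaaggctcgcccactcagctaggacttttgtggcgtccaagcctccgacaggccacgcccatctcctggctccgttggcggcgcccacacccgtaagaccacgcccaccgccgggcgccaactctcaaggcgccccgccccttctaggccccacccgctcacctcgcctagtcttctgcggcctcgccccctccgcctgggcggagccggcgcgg
The Rab20 promoter held CACGTG at position 205 and the PU.1 core at position 254, and the Rab6b promoter held the PU.1 core at position 286, counted from the 5′ end, each PU.1 core on the opposite strand. Neither motif was in the Rab39 or Rab3d window. Among 60 promoters of 48 Rab genes, 8 held the PU.1 core, which is 13.3% against 13.6% of all 32851 promoters in the table. The E-box was in 10% of Rab promoters and 7.15% of all. The other Rab genes with a PU.1 core were Rab12, Rab21, Rab2b, Rab32, Rab33b and Rab6a, none of which was called between the cell types. A GC box, GGGCGG, was in 68.3% of the Rab promoters and 35.7% of all, and CCAAT, the core bound by NF-Y, in 43.3% and 37.4%. The cyclic AMP response element TGACGTCA was in 3.33% and 1.79%. A match describes letters in the window and not a bound site.

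Both cell types used largely the same Rab genes at the top of the family. Rab7, the GTPase of late endosomes and lysosomes, had the highest level per length in both. Rab31, which moves cargo between the Golgi and endosomes, and Rab1b and Rab1a, which carry cargo from the endoplasmic reticulum to the Golgi, came next together with Rab11a, the GTPase of the recycling endosome. Levels of different genes are compared here only as CPM per kilobase of merged GENCODE exons, which was found for all 59 genes.

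In macrophages Rab7 reached 155.5 CPM per kb, Rab1b 126.1, Rab31 110.2, Rab1a 89.4 and Rab11a 79.4. In microglia the same 5 genes stood at the top, with Rab7 at 116.2 CPM per kb, Rab31 at 92.4, Rab1b at 81.6, Rab11a at 71.3 and Rab1a at 71.0. Behind them came Rab8b, which serves traffic to the plasma membrane (57.9 CPM per kb in macrophages and 39.6 in microglia), Rab5c, of early endosomes (54.0 and 33.8), and Rab32, of lysosome-related organelles (51.0 and 43.9). Rab29, a partner of the kinase Lrrk2 at the Golgi and lysosomes, stood at 40.9 and 20.2 CPM per kb, and Rab14, of Golgi-to-endosome and phagosome traffic, at 29.4 and 23.8. Rab39 and Rab8a completed the first 10 in microglia, at 24.7 and 24.1 CPM per kb, against 9.59 and 24.7 in macrophages. Neighbours in this order were mostly not separated by the pools. Over the 8 macrophage pools Rab7 spanned 110.8 to 179 CPM per kb, Rab1b 92.5 to 147.5 and Rab31 66.1 to 138, and over the microglia pools Rab7 spanned 68.6 to 137.5, Rab31 69.0 to 115 and Rab1b 56.7 to 91.7. In macrophages every pool of Rab7 was above the highest pools of Rab8b, Rab5c and Rab32, at 75.7, 66.0 and 62.5 CPM per kb.

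At the other end, Rab17, of epithelial cells, had no count in any macrophage or microglial cell, which allows up to 0.0258 CPM in macrophages and 0.0413 CPM in microglia (3 counts of the total). Rab39b had no count in macrophages and 1 in microglia, and Rab9b had 8 in macrophages and none in microglia. Rab25 had 1 count in macrophages and 128 in microglia, all from 1 cell. A value of that kind describes 1 cell and not a cell type. Of the neuronal and exocytic Rab3 genes, Rab3b and Rab3c stayed under 3 CPM in both types, while Rab3a had 17.3 CPM in macrophages and 24.4 in microglia.

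**Figure D1:**
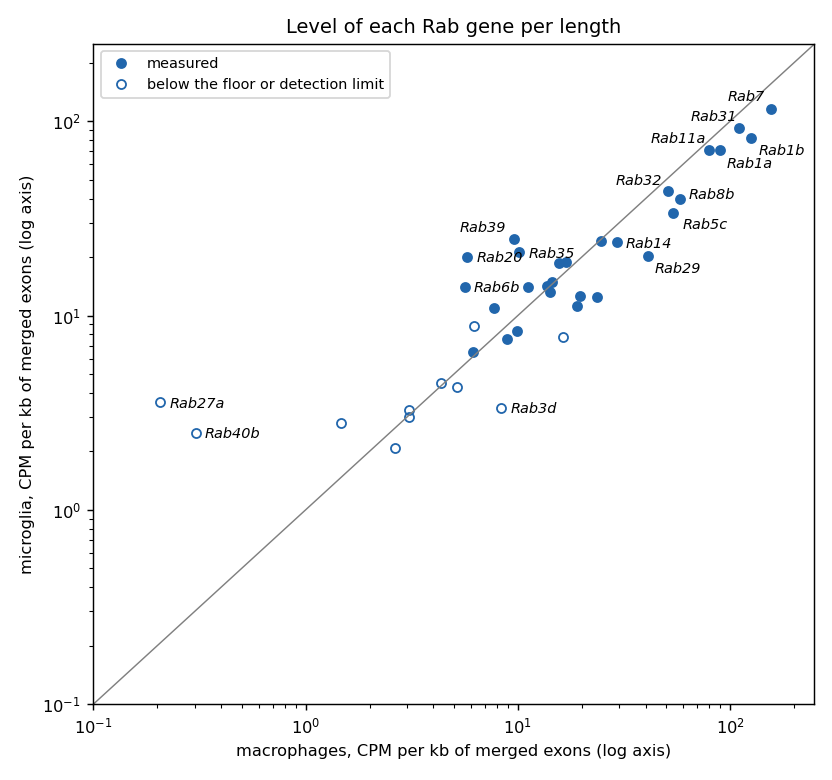
Level of each Rab gene in macrophages (x axis) and microglia (y axis) as CPM per kb of merged exons, both on log axes, with genes above 2 CPM per kb in either type. Filled points are the 28 genes at or above 20 CPM and 25% of cells in a cell type, open points the others, and the line marks equal levels; Rab20, Rab6b, Rab39, Rab35 and Rab27a lie above it.

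Summed over the family, macrophages held 3713.6 CPM of Rab counts and microglia 3154.9. The 8 macrophage pools ran from 2843.4 to 4279.9 CPM with a median of 3436.1, and the microglia pools from 2438.5 to 3443.9 with a median of 2957.0, so the ranges overlapped. Within matched plate and genotype the sum was higher in macrophages in 7 of 8 pools, and Het 529s was the exception, at 2843.4 against 2914.8 CPM. The summed level was 0.371% of all counts in macrophages and 0.316% in microglia. The number of Rab genes seen in 1 cell went the other way. A macrophage had a count for a median of 15 Rab genes and a microglial cell for 20. After each cell had been thinned to 66287 counts, with 47 macrophages and 15 microglia too shallow to keep, the medians were 13 and 18. Over all genes, too, microglia had more genes with a count at that depth, with a median of 3840.5 against 2802 in macrophages, and the part of that breadth in the Rab count was not tested.

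Which Rab genes mark each cell type was asked with the rule that a gene reach 20 CPM and a count in 25% of cells in the same cell type, differ by at least 2-fold on CPM + 1, and lie in the same direction in 8 of 8 pools of matched plate and genotype. Of 59 Rab genes, 28 were measured by the first condition and 31 were not. By this rule 2 Rab genes were called higher in microglia, Rab20 and Rab6b, where 4.67% of the 6230 measured genes were called in that direction. No Rab gene was called higher in macrophages, where 1.81% of all measured genes were. The share of Rab genes called was near these backgrounds. Of the 28 measured Rab genes 17 had a higher summed level in macrophages and 11 in microglia, and their median log2 ratio of macrophages over microglia was 0.18, against 0.01 over all measured genes.

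Rab20 acts on early endosomes and maturing phagosomes. Its summed level was 8.03 CPM (7.53 to 8.57) in macrophages and 27.9 CPM (26.7 to 29.2) in microglia, a log2 ratio of -1.68. Over the macrophage pools it ran from 0 through a median of 10.2 to 16.9 CPM, and over the microglia pools from 6.21 through 18.8 to 72.6. Each microglia pool was above the macrophage pool of its own plate and genotype, although the ranges of the cell types overlapped. The macrophage pool at 0 was WT 529s, where 3 counts would be 0.594 CPM. The share of thinned cells with a Rab20 count was 7.08% in macrophages and 32.5% in microglia. The 2 highest microglia pools were Het 529s and KO 524s, at 72.6 and 68.2 CPM, and the others lay at or below 30.8. In WT cells alone the log2 ratio was -0.67 and the gene was not called. An annotated gene on the opposite strand, E230013L22Rik, overlaps exons of Rab20, and SMART-seq2 reads do not record strand, so reads of the 2 genes cannot be told apart.

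Rab6b is the Golgi Rab6 isoform that is best known from neurons. It stood at 28.4 CPM (27.4 to 29.4) in macrophages and 70.9 CPM (69.0 to 72.9) in microglia, a log2 ratio of -1.29. The macrophage pools ran from 0.594 through a median of 17.7 to 58.6 CPM and the microglia pools from 46.7 through 73.5 to 99.6. The highest macrophage pool, KO 524s, overlapped the microglia range, and the remaining macrophage pools, at or below 40.8 CPM, lay under every microglia pool. Thinned cells had a Rab6b count in 13.3% of macrophages and 32.5% of microglia. In Het cells alone the log2 ratio was -0.70 and the gene was not called. Its close relative Rab6a, the ubiquitous Golgi form, was level between the types, at 51.0 CPM in macrophages and 52.7 in microglia, and was higher in macrophages in 3 of 8 pools. Relatives within a Rab subfamily are alike in sequence, and how the authors' counting split reads between them is not given in the sources used here.

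The 69 microglia rich in macrophage markers were then left out, which left the Het 056s and WT 529s microglia pools with 7 cells each, under the minimum of 10 used elsewhere. Rab6b in the remaining microglia was 80.5 CPM, with a log2 ratio of -1.47 and 8 of 8 pools in the same direction. Rab20 was 32.7 CPM, with a log2 ratio of -1.90 but 7 of 8 pools, and so was no longer called.

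Several Rab genes stopped just short of the rule. Rab39, a Rab of late endosomes and phagosomes, had 28.5 CPM in macrophages and 73.5 in microglia, a log2 ratio of -1.34, with 7 of 8 pools higher in microglia. In WT 530s it was 26.7 CPM in macrophages and 25.7 in microglia, the pool that ended the call. Its share of thinned cells was 11.0% in macrophages and 41.0% in microglia. Rab35, of fast recycling from endosomes to the plasma membrane, had 28.7 and 59.8 CPM, a log2 ratio of -1.03, again with 7 of 8 pools higher in microglia. Its exception was Het 056s, with 26.1 CPM in macrophages and 8.63 in microglia, and its thinned shares were 19.3% and 51.5%. With the microglia rich in macrophage markers left out, the log2 ratio of Rab35 was -0.97, with 5 of 8 pools higher in microglia. That of Rab39 was then -1.475, with 7 of 8 pools higher in microglia.

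Rab27a, which docks secretory lysosomes and exosome-bearing bodies at the plasma membrane, was under the floor of 20 CPM in both cell types. It had 0.80 CPM (0.646 to 0.980) in macrophages and 13.9 CPM (13.0 to 14.7) in microglia, and all 8 pools were higher in microglia. The macrophage pools ran from 0 through 0.413 to 5.21 CPM and the microglia pools from 7.56 through 10.8 to 40.8, with no overlap. The share of all genes with pools so apart is not given here. A Rab27a count was found in 1.13% of thinned macrophages and 17.0% of thinned microglia. Its relative Rab27b stayed at 0.482 and 0.440 CPM. Rab27a shares exons on the same strand with the annotated gene Gm27186.

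**Figure D2:**
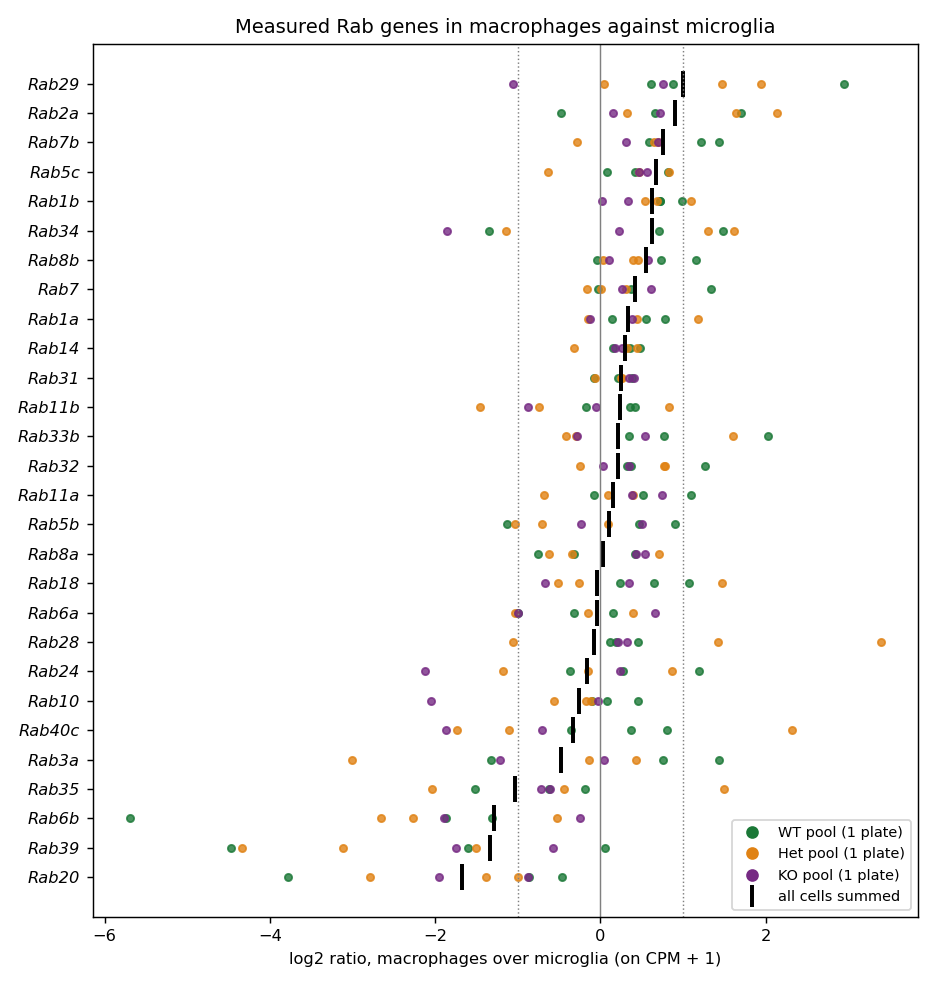
Log2 ratio of macrophages over microglia on CPM + 1 for the 28 measured Rab genes, with a point for each of the 8 pools coloured by genotype and a black bar for all cells summed. Dotted lines mark 2-fold; only Rab20 and Rab6b have a summed ratio past 2-fold with every pool on the same side.

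On the macrophage side the differences were smaller. Rab1b was the 1 measured Rab gene higher in macrophages in 8 of 8 pools. It had 286 CPM (283 to 289.6) in macrophages and 185 CPM (182 to 189) in microglia, a log2 ratio of 0.62, and so stayed under 2-fold. The macrophage pools ran from 210.1 through 277 to 335 CPM and the microglia pools from 129 through 187 to 208, so every macrophage pool was above every microglia pool. For pool agreement or non-overlap without the 2-fold condition, the share of all measured genes is not given here. The thinned share of cells with a Rab1b count did not follow, at 81.3% of macrophages and 81.0% of microglia. Rab29 had 60.1 and 29.6 CPM, a log2 ratio just under 2-fold, at 0.99, and was higher in macrophages in 7 of 8 pools, with KO 524s the exception. Rab2a, of the endoplasmic reticulum and Golgi, had 50.3 and 26.5 CPM, Rab7b, of late endosomes, 87.7 and 51.7, and Rab5c 118 and 74.2, each higher in macrophages in 7 of 8 pools.

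Rab3d, a Rab of regulated exocytosis, differed in the sum but not by pool. It had 35.1 CPM in macrophages and 14.1 in microglia, but the pools were divided 4 against 4, with medians of 22.4 and 22.5 CPM.

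**Figure D3:**
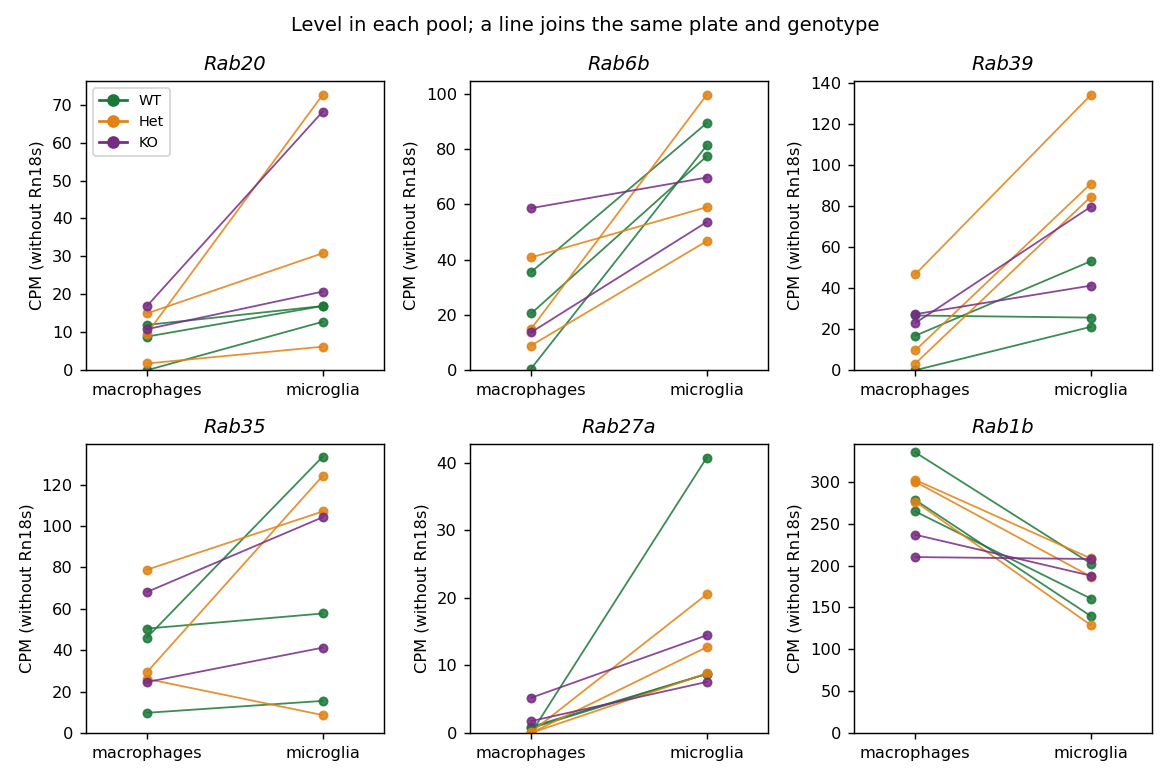
Level in CPM of 6 Rab genes in each pool, with a line joining the macrophages and microglia of the same plate and genotype, coloured by genotype. All 8 lines rise toward microglia for Rab20, Rab6b and Rab27a, 7 of 8 for Rab39 and Rab35, and all 8 fall for Rab1b.

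By role, the early endosome and phagosome Rabs had 4 of 7 members measured, 1 of them called, Rab20 in microglia, and a median log2 ratio of 0.17. The recycling endosome Rabs had 4 of 9 measured and none called, with a median of 0.20. Among the late endosome and lysosome Rabs 5 of 11 were measured and none called, and the median was 0.42. By summed level Rab7, Rab7b and Rab34 were higher in macrophages and Rab39 and Rab24 in microglia. By pool Rab24 was divided 4 against 4, and Rab34 was higher in macrophages in 5 of 8. The lysosome-related organelle Rabs had 2 of 3 measured, Rab29 and Rab32, none called, and a median of 0.61. The ER and Golgi Rabs had 7 of 12 measured, 1 called, Rab6b in microglia, and a median of 0.22.

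Secretory and plasma membrane Rabs were the least often measured, 4 of 13, with none called and a median of -0.11. The 4 were Rab8a, Rab8b, Rab10 and Rab3a. Rab8a, which carries cargo to the plasma membrane and cilium, was level at 116 CPM in macrophages and 113 in microglia, and Rab10, of surface delivery, had 54.6 and 65.8. Rab8b had 274 and 188 CPM and was higher in macrophages in 7 of 8 pools. Of the cilium and other Rabs 2 of 4 were measured, Rab28 and Rab40c, with none called and a median of -0.20. These medians stand beside 0.01 for all measured genes.

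**Figure D4:**
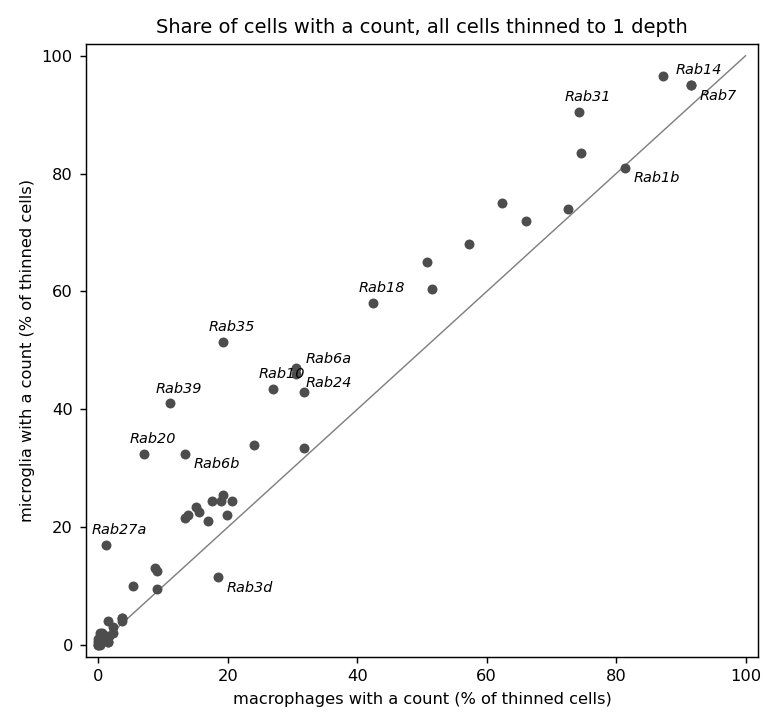
Share of thinned cells with at least 1 count of each of the 59 Rab genes, in macrophages (x axis, 353 cells) and microglia (y axis, 200 cells), in percent, with the line of equal shares. Most points lie above the line; Rab35, Rab39, Rab20 and Rab6b lie farthest above it and Rab3d farthest below.

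The proteins that switch Rabs were set beside them, as lists of 8 escort, prenylation and GDI genes, 32 exchange factors, 34 GTPase activating proteins and 55 effectors and tethers. Of these 129 genes 82 were measured, 4 were called higher in microglia and 2 in macrophages, shares near the 4.67% and 1.81% of all measured genes. Their values follow as a description. Hps4, which with Hps1 forms the exchange factor of Rab32 and Rab38, had 96.7 CPM in macrophages and 274 in microglia, a log2 ratio of -1.49. Its partner Hps1 had 90.9 and 65.2 CPM, and Rab32 itself 119 and 103. Neither Hps1 nor Rab32 was called. Dennd4a, an exchange factor for Rab10, had 20.7 and 106 CPM, a log2 ratio of -2.31, and its pools did not overlap between the types, nor did those of Hps4. The share of all measured genes with pools so apart is not given here.

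The GTPase activating proteins went both ways. Tbc1d4, also known as AS160, which acts on Rab10, Rab8a and Rab14, had 282 CPM in macrophages and 91.4 in microglia, a log2 ratio of 1.62. Tbc1d16, which acts on Rab4, had 27.8 and 76.3 CPM, a log2 ratio of -1.42. Sgsm3 had 25.5 and 58.7 CPM, a log2 ratio of -1.17, and lost its call without plate 524s, 529s or 530s, where its log2 ratio was -0.99, -1.15 and -0.97. Without 529s the ratio was still past 2-fold, and the floor or the share of cells was no longer met. Sgsm3 also shares exons with genes on the opposite strand, among them Mrtfa. The motor Myo5a, which moves Rab27a-bearing and Rab11-bearing vesicles along actin, had 436 and 184 CPM, a log2 ratio of 1.24. No escort, prenylation or GDI gene was called: Gdi2, which extracts Rabs from membranes, had 597 CPM in macrophages and 582 in microglia.

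The Notch3 genotypes were compared next, within each cell type. In KO macrophages no Rab gene was called against WT and Het, in either direction. The rule asked for 20 CPM and 25% of cells in the same genotype, at least 2-fold beyond both WT and Het, and both KO pools beyond all 6 control pools. Of all 5483 measured genes 0.328% were called higher in KO macrophages and 0.62% lower, and 25 Rab genes were measured. The median log2 ratio of those Rab genes was -0.16 for KO over WT and -0.38 for KO over Het, against -0.06 and -0.07 for all measured genes. On plate 524s, which held both, the Rab median of KO over Het was -0.11 against -0.04. The difference from Het was therefore smaller within the plate. Het macrophages were dominated by plate 056s, which gave 33892157 of their 39050977 counts.

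Rab1b was the 1 measured Rab gene with both KO macrophage pools below all controls. The share of all measured genes with that pool order is not given here, so the order does not set Rab1b apart. Its KO pools had 237 CPM on 060s and 210.1 on 524s. The Het pools had 300.1 on 056s, 302 on 524s and 276 on 529s, and the WT pools 335 on 059s, 265 on 529s and 278 on 530s. The summed levels were 295 CPM in WT, 299 in Het and 230 in KO, with log2 ratios of -0.36 and -0.38, well short of 2-fold. In microglia Rab1b was not lower in KO, at 185 CPM in WT, 175 in Het and 199 in KO.

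The largest ratio to WT among measured Rab genes in KO macrophages was that of Rab7b. It had 119 CPM in WT, 63.1 in Het and 36.0 in KO, log2 ratios of -1.70 over WT and -0.79 over Het. The KO pools, at 26.6 CPM on 060s and 62.9 on 524s, overlapped the Het pools, at 63.4 on 056s, 89.4 on 524s and 35.3 on 529s. The WT pools were 106 on 059s, 96.1 on 530s and 331 on 529s, so 1 WT pool stood far above the others. Without plate 524s, which removes 1 pool of KO and 1 of Het, Rab7b was called lower in KO, at log2 -2.12 against WT and -1.18 against Het. Without plate 060s, which leaves the other KO pool alone, the ratios were -0.91 and 0.00, so the difference from Het was gone.

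Het macrophages were compared with WT by the same rule with 1 control. Of all 5337 measured genes 0.787% were called higher in Het and 1.56% lower, and among 25 measured Rab genes 1 was called, Rab3d, lower in Het. Its Het pools had 15.4 CPM on 056s, 0.405 on 524s and 8.93 on 529s, and its WT pools 47.3 on 059s, 22.2 on 529s and 53.5 on 530s. All Het pools were below all WT pools, and on plate 529s, which held both, the log2 ratio of Het over WT was -1.22. In the Het 524s pool 3 counts would be 1.21 CPM, above its level. The summed levels were 48.8 CPM in WT and 14.0 in Het, a log2 ratio of -1.73, and Rab3d had 35.5 CPM in KO, between them. By pool KO was not between them, at 22.6 CPM on 060s and 72.3 on 524s, the second above every WT pool. A count was present in 26.5% of WT and 25.7% of Het cells, just past the limit of detection used. The call was lost without plate 530s, where the log2 ratio of -1.52 was still past 2-fold. There the floor or the share of cells was no longer met. Without plate 056s the log2 ratio was -3.09.

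In KO microglia no Rab gene was called either, where 0.324% of the 6796 measured genes were called higher and 0.471% lower, with 30 Rab genes measured. Rab40c, a Rab that recruits a ubiquitin ligase, and Rab33b, of the Golgi and of autophagosome formation, had both KO pools above all controls. For these genes and for Rab5c below, the share of all measured genes with such a pool order is not given here. The order therefore does not set them apart. Rab40c had 39.6 CPM in WT, 22.9 in Het and 75.3 in KO, with log2 ratios of 0.91 over WT and 1.68 over Het, the first just under 2-fold. Its KO pools had 64.8 CPM on 060s and 83.5 on 524s, and its highest control pool 42.2. Rab33b had 22.1, 20.9 and 41.0 CPM in WT, Het and KO, with log2 ratios of 0.86 and 0.93, and KO pools at 31.9 and 48.0 CPM against at most 24.7 in a control pool. With the mean of the cells' own CPM in place of summed counts, the log2 ratio of Rab33b over WT was -0.75, the opposite direction. Both were called higher in KO without plate 060s, and Rab40c also without 059s, while without 056s the log2 ratio of Rab40c over Het was 2.32. Both share exons with a gene on the opposite strand, Gm16278 for Rab40c and Gm38160 for Rab33b.

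Rab5c had both KO microglia pools below all controls, at 61.9 CPM on 060s and 63.5 on 524s against 68.7 to 106 over the control pools. Its log2 ratios were only -0.31 over WT and -0.32 over Het. Rab20, called higher in microglia above, had 16.5 CPM in WT, 25.1 in Het and 47.4 in KO microglia. That order did not hold by pool, since the KO pools were 20.7 and 68.2 CPM and the Het pools 6.21, 30.8 and 72.6, so KO and Het overlapped. The log2 ratio of KO over Het for Rab20 was 0.89, and it was -0.31 without plate 056s, -0.22 without 524s and 2.13 without 529s. Over WT it was 1.47, and 0.32 without 524s. The median log2 ratio of the measured Rab genes was -0.09 for KO over WT and -0.19 for KO over Het, against -0.04 and 0.00 for all genes. Within plate 524s the Rab median of KO over Het was 0.40, against 0.04 for all measured genes, so the sign there was the reverse of the pooled value.

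Het microglia had 1 called Rab gene of 30, Rab39, higher than in WT, where 1.48% of the 6601 measured genes were called higher in Het and 1.55% lower. Its Het pools had 134 CPM on 056s, 84.7 on 524s and 91.1 on 529s, and its WT pools 53.2 on 059s, 21.2 on 529s and 25.7 on 530s. All Het pools were above all WT pools, and within plate 529s the log2 ratio was 2.05. The summed levels were 44.0 CPM in WT and 118 in Het, a log2 ratio of 1.40, with KO at 58.2, nearer to WT. Without plate 056s the log2 ratio was 1.00, just under the limit, and Rab39 was not called, and without plate 059s it was 2.25. In macrophages Rab39 was under the detection limit in every genotype and was not compared.

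**Figure D5:**
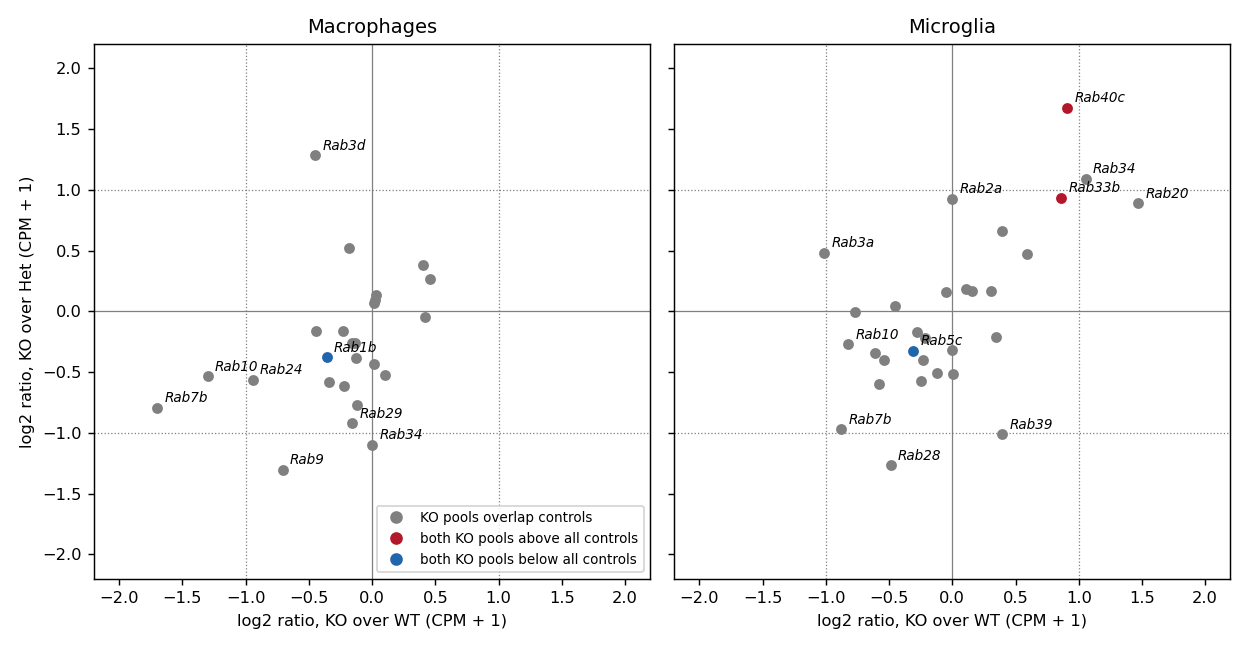
Log2 ratio of KO over WT (x axis) and of KO over Het (y axis), on CPM + 1, for the 25 Rab genes measured in macrophages (left) and the 30 in microglia (right). Dotted lines mark 2-fold, and colour shows whether both KO pools lie above or below all 6 control pools, as for Rab1b in macrophages and Rab40c, Rab33b and Rab5c in microglia. The share of all measured genes with such a pool order is not given here.

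Of the Rab regulators 4 were called between genotypes: 1 of 71 measured was higher in KO macrophages, 1 of 86 lower in KO microglia and 2 of 84 higher in Het microglia, and none of 65 was called in Het macrophages. The shares of all measured genes called in those directions were 0.328%, 0.471% and 1.48%, and such small counts are not set apart from them. Ccz1, which with Mon1 loads Rab7, had 14.7 CPM in WT, 10.5 in Het and 40.8 in KO macrophages, while Rab7 was level at 414, 386 and 422. In microglia the summed levels of Ccz1 were 33.3, 30.6 and 35.3 CPM in WT, Het and KO, below the sum in KO macrophages. By matched plate and genotype Ccz1 was higher in microglia in 7 pools and in macrophages in 1. The higher level of KO macrophages therefore did not hold in both KO pools. The pools of Ccz1 reached 41.8 CPM in macrophages and 40.1 in microglia. The exons of Ccz1 overlap Gm24311 on the opposite strand, and those of Tbc1d2b overlap Adamts7. Tbc1d2b, a TBC-domain protein, had 74.3 CPM in WT, 66.1 in Het and 32.0 in KO microglia, with log2 ratios of -1.19 over WT and -1.02 over Het. It lost its call without plate 056s, at -0.42 over Het, without 059s, at -0.95 over WT, and without 524s, at -0.98 over WT and -0.85 over Het. Rab3ip, an exchange factor for Rab8, had 12.9 CPM in WT and 33.1 in Het microglia, and lost its call without plate 524s. Its log2 ratio there, 1.17, was still past 2-fold, and the floor or the share of cells was no longer met. Tbc1d9b, a GTPase activating protein for Rab11, had 88.8 CPM in WT and 225 in Het microglia, and lost its call without plate 056s, at 0.98. Rab8a and Rab8b, the targets of Rab3ip, had summed levels of 104 and 173 CPM in WT microglia and 129 and 226 in Het. The WT and Het pools overlapped for each gene. On plate 529s, which held both genotypes, the log2 ratio of Het over WT was -0.20 for Rab8a and -0.47 for Rab8b.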

How the data were processed

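The authors deposited whole-number counts per gene and cell, without normalisation, for 53546 gene symbols and 92 ERCC sequences. Per the submitters' processing notes reads were aligned with STAR, and its version, the build, annotation, counting program and any filter on cells are not given in the sources used here. Each of the 629 cells had 1 column, found by its title. ERCC (1.22% of all counts) and Rn18s (40.4% of gene counts) were left out of totals, and counts were summed by cell type, genotype and plate. Pools had at least 10 cells, except where microglia rich in macrophage markers were left out, which left 2 pools with 7. Ratios were formed on CPM + 1, with Python 3.11.15, numpy 2.4.6, pandas 2.3.3 and scipy 1.17.1, and drawn with matplotlib 3.10.9. edgeR 4.0.16 and DESeq2 1.42.0 in R 4.3.3 gave scaling factors only. The call rules were run on simulated counts. Those counts held no differences between plates, so they cannot show how the rules behave where plates differ. Exon lengths and overlaps came from GENCODE M21, promoters from RefSeq.

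Named Rab genes were those called in a comparison and the 10 highest per kb in either cell type. Others, such as Rab27a, Rab35, Rab7b and those with KO pools apart from controls, were named after their values were seen. Regulators were named where called, and Hps1 and Gdi2 after their values were seen. The members, lists and rules were chosen with earlier results of these data known. No p-value is given. Alternatives changed the total, scaling, pseudocount, floor, detection limit, fold, depth, cells and plates. Those for the regulators were added after seeing the data.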

Additional observations from a re-analysis of the deposited data

Results flagged for a closer look

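The 14 cells whose type is labelled only 7 entered no comparison. In their summed counts 4 Rab genes that were at or above 20 CPM stood at least 2-fold above both macrophages and microglia. The share of all genes that stood so is not given here. These cells were shallow, with median counts of 10976.5 in WT, 32670 in Het and 34092 in KO. The summed counts were 102 for Rab29, 63 for Rab28, 204 for Rab8a and 58 for Rab3d. Rab29 had 133.6 CPM (109 to 162), Rab28 had 82.5 CPM (63.4 to 105.6), Rab8a had 267.3 CPM (232 to 307) and Rab3d had 76.0 CPM (57.7 to 98.2). Few cells carried these counts: Rab29 was found in 4 cells, with 69.6% of its counts in 1, Rab28 in 5 cells with 44.4% in 1, Rab8a in 6 with 42.7% in 1, and Rab3d in 6 with 62.1% in 1. The same cells held 23713.4 CPM of the 13 macrophage markers, 14828.6 CPM of the 13 microglia markers and 4164.7 CPM of 6 oligodendrocyte markers, and the part of any of these in the Rab values was not tested.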

How the results depend on the processing

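The summed Rab level of macrophages over microglia kept its direction under all 10 alternatives, with a log2 ratio of 0.24 and, leaving out 1 plate at a time, 0.22 to 0.26. Rab6b was called in 22 of 24 settings and Rab20 in 18 of 24, Rab3d in Het macrophages in 13 of 19 and Rab39 in Het microglia in 18 of 20. For the counts here and in the next paragraph, the share of all genes called under the same alternative is not given. Those counts are therefore not read as results about the Rab genes or their regulators. Between cell types, the count of Rab genes called higher in macrophages was 0, and it was 1 with a 1.5-fold limit (Rab1b) and in WT alone (Rab7b), 2 in Het alone (Rab29 and Rab2a), and 0 to 1 without 1 plate (Rab7b without 056s, Rab29 without 524s, Rab2a without 529s). The 2 called higher in microglia became 1, Rab6b, with Rn18s in the total, a floor of 50 CPM, thinned cells or microglia low in macrophage markers, 0 where pools must not overlap, and 5 in KO alone. For regulators, 2 called higher in macrophages became 4 at 1.5-fold, 0 where pools must not overlap, 5 in WT, 7 in Het and 7 in KO alone, and 2 to 4 without 1 plate (4 without 529s), while 4 in microglia became 2 where pools must not overlap, 8 in WT, 10 in Het and 9 in KO alone.

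By genotype, Rab genes called without 1 plate were 0 to 2 for lower in KO macrophages (Rab10 and Rab29 without 060s, Rab7b without 524s), 0 to 1 for higher in Het macrophages (Rab34 without 524s), 1 to 3 for lower in Het macrophages (Rab10, Rab5a and Rab7b without 530s), 0 to 2 for higher in KO microglia, 0 to 2 for lower in KO microglia (Rab22a and Rab7b without 524s), 1 to 2 for higher in Het microglia (Rab18 and Rab39 without 059s, Rab20 alone without 056s) and 0 to 1 for lower in Het microglia (Rab22a without 056s, Rab2a without 529s). Lower in Het macrophages was 0 with Rn18s in the total, the mean of the cells' own CPM, a floor of 50 CPM or thinned cells, and 2 with the mean of pools, no detection limit or a 1.5-fold limit. Higher in KO microglia was 1 with the mean of pools (Rab40c) and 2 at 1.5-fold. Higher in Het microglia was 0 with Rn18s in the total. Alternatives with fewer pools are easier to pass by construction, and for the others the cause was not tested. Cell types were compared within matched pools and genotypes within plates 524s and 529s, but no fit with a replicate block was made because no test was run. Of the 31 Rab genes not measured, 28 were under 20 CPM in both cell types and 3 (Rab22a, Rab3d and Rab9) had a count in too few cells where they reached it.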
